A study of Mus musculus with 15 samples.

Results

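The 10 genes described here encode secreted regulators of vessel growth and their co-receptors. They are the 5 VEGF family ligands Vegfa, Vegfb, Vegfc, Vegfd (also called Figf) and Pgf, the neuropilins Nrp1 and Nrp2, the angiopoietins Angpt1 and Angpt2, and the angiopoietin-like gene Angptl4. They were chosen by symbol from 48440 genes in the count table, with no cutoff on a measured value but with earlier results of these data known. All 10 were among the 18167 genes with enough reads to be tested. The measurements were RNA-seq of primary lung fibroblasts from C57BL/6 mice, kept in 15% serum at 3% oxygen. The 5 groups held 3 libraries each, which were Atm+/+ at passage 2, Atm-/- at passage 2, Atm+/+ at passage 8, Atm-/- at passage 8, and Atm+/+ given 10 Gy of X-rays and harvested 10 days later. The irradiated cells carried the label passage 2 and served the study as a control with senescence brought on by stress. Each genotype was represented by 3 fibroblast strains from mice, so an SD within a group reflects the spread between such strains. Groups of a genotype may hold the same strains. The p-values come from a fit that takes the 15 libraries as independent, so they do not measure that spread alone. All coordinates below are on GRCm38 from GENCODE vM21, in which the 10 genes are protein-coding. The labels do not say which part of Atm the knockout removes, nor whether a strain number is shared between groups.

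VEGF-A acts through the receptors Flt1 and Kdr, which sit mainly on endothelial cells, and is the main driver of new vessels. Its gene is a classical target of the hypoxia-inducible factors. VEGF-B and placental growth factor, the product of Pgf, bind Flt1, whereas VEGF-C and VEGF-D bind Flt4, the receptor of lymphatic endothelium, and VEGF-D is abundant in lung. Neuropilins present VEGFs to these receptors and also bind secreted semaphorins. Angiopoietin 1 activates the receptor Tek and steadies vessels, angiopoietin 2 modulates or opposes it, and Angptl4 inhibits lipoprotein lipase and is induced by PPAR factors and by low oxygen.

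Library totals ranged from 13645592 to 39210772 counts. At equal depth, replicate 3 of Atm+/+ passage 2 held 17217 detected genes and replicate 3 of Atm-/- passage 8 held 15037, while each of the other 13 libraries held at least 20053. Counts of calls, and the values of several genes, are also given without these 2 libraries. Atm itself was low, at 0.877 to 3.10 CPM (counts scaled to a common library total, TMM-normalised) over the Atm+/+ libraries and 0.873 to 2.37 CPM over the Atm-/- libraries, so its gene-level count did not separate the genotypes and groups are named as labelled. The 10 fibroblast markers were present throughout, summing to 11920 to 17340 CPM in Atm-/- cells at passage 8 and to 26920 to 43520 CPM in the libraries of the other 4 groups. Each value is from a whole culture, in which fewer cells of a type and less RNA per cell cannot be told apart.

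Set side by side per unit of length, Vegfd was the most abundant of the 10 transcripts in every group but the irradiated one. In TPM (counts per transcript length scaled to the same total in each library, mean ± SD, n = 3), Vegfd stood at 523 ± 40.3 in Atm+/+ and 292 ± 24.2 in Atm-/- cells at passage 2, at 665 ± 17.7 in Atm+/+ and 280 ± 151 in Atm-/- cells at passage 8, and at 298 ± 87.2 after irradiation. Vegfa led after irradiation with 466 ± 38.4 TPM, its 3 libraries all above those of Vegfd. Angpt1 was lowest in all 5 groups, between 0.515 and 2.18 TPM on average. Below Vegfd, many neighbours in the order of levels overlapped. In Atm+/+ cells at passage 2, the ranges of Pgf, Nrp1, Vegfa, Angptl4 and Vegfb each overlapped the next. In Atm-/- cells at passage 8, Vegfd, Vegfb and Vegfa could not be ranked beyond the spread of their replicates.

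**Figure D1:**
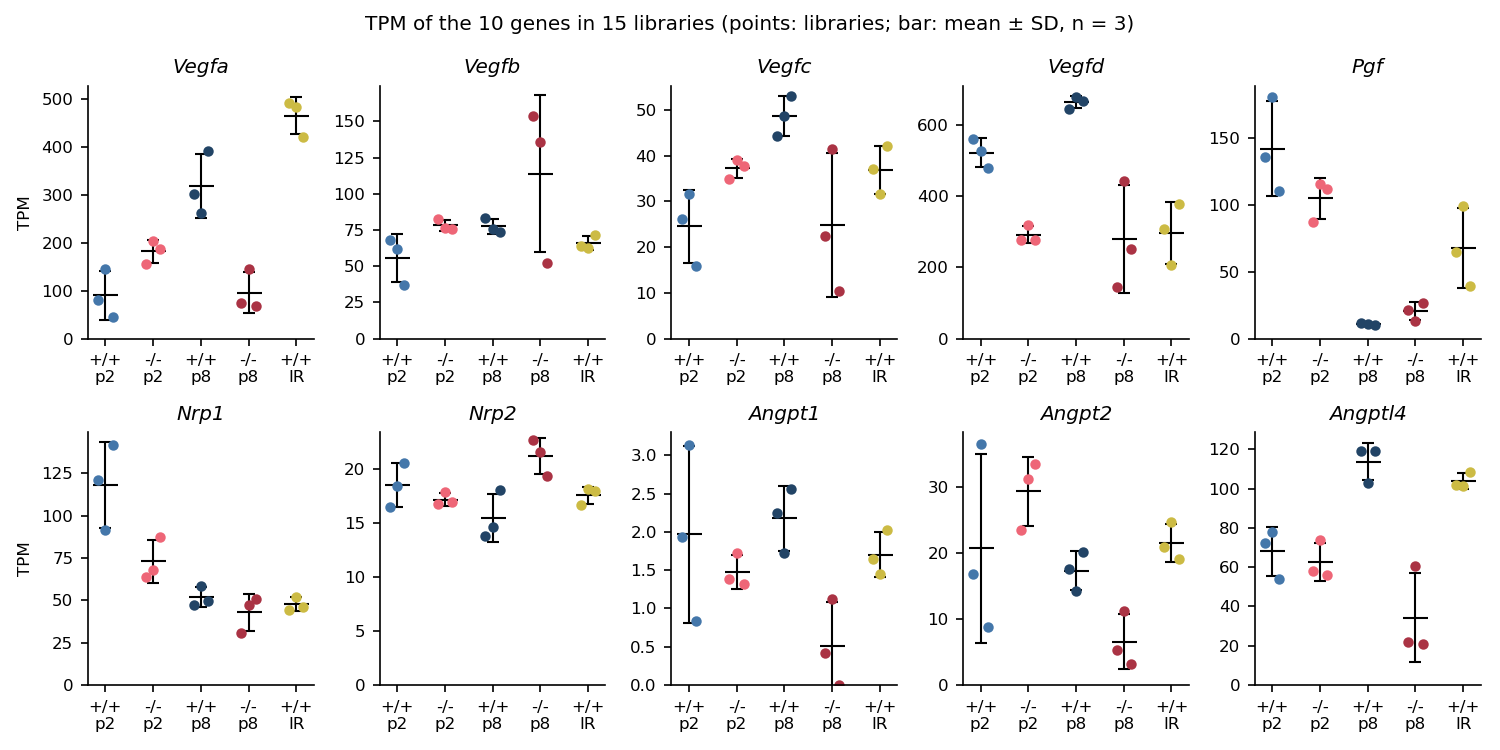
TPM of each of the 10 genes in the 15 libraries, 1 panel per gene with its own linear axis. Points are libraries and bars are mean ± SD (n = 3). Vegfa is highest in the irradiated group, Pgf falls to 11.2 TPM on average in Atm+/+ cells at passage 8, and the Atm-/- passage 8 libraries are widely spread for Vegfb, Vegfc and Vegfd.

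The make-up of the VEGF ligand pool differed between the groups. Summed over the 5 ligand genes, TPM was 835 ± 133 and 695 ± 57.9 in Atm+/+ and Atm-/- cells at passage 2, 1121 ± 66.8 and 535 ± 212 at passage 8, and 935 ± 46.0 after irradiation. Vegfa supplied 10.3% ± 4.52 of this sum in Atm+/+ cells at passage 2 and 49.97% ± 5.33 after irradiation. Pgf supplied 16.9% ± 1.91 in Atm+/+ cells at passage 2 and 1.00% ± 0.12 at passage 8. The share of Vegfb was 22.3% ± 12.8 in Atm-/- cells at passage 8, with 36.8% in replicate 1 and 17.4% and 12.8% in the others, while it was 6.56% to 11.4% on average in the other groups. These shares are a description of the deposited TPM and were not tested.

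**Figure D2:**
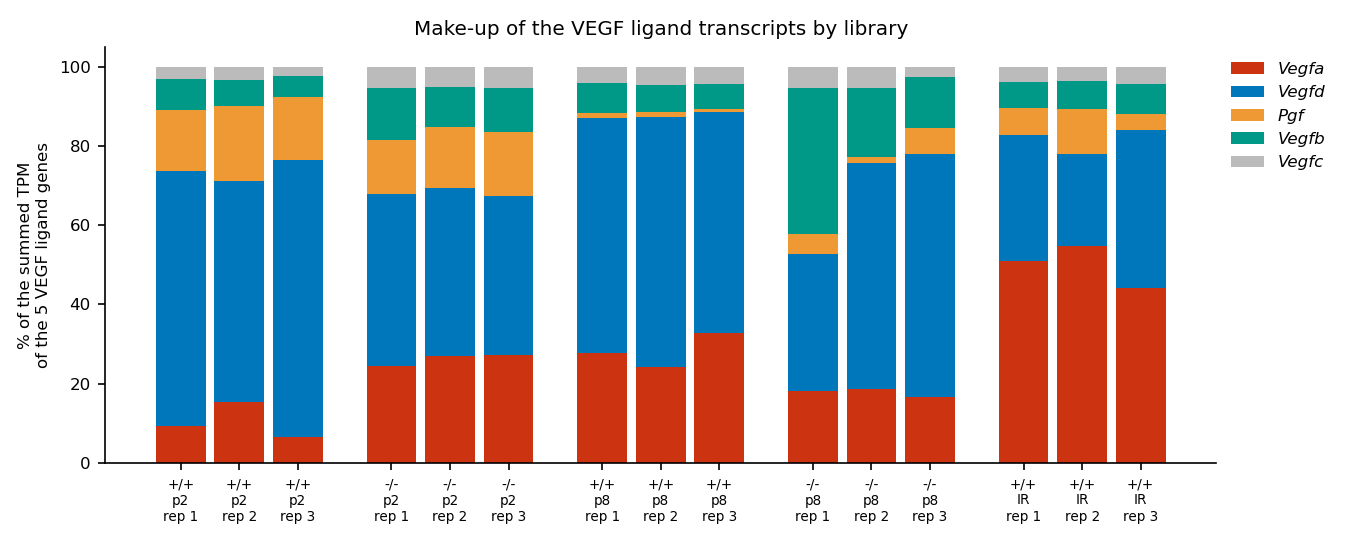
Percent of the summed TPM of the 5 VEGF ligand genes supplied by each gene, 1 stacked bar per library. Vegfa supplies 49.97% on average after irradiation, Vegfd supplies most of the pool in Atm+/+ cells at either passage, and the Pgf band is narrow in Atm+/+ cells at passage 8.

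Over the 10 genes, the number that changed depended on the comparison. Between the genotypes at passage 2, 0 of 10 passed an adjusted p of 0.05 in edgeR (quasi-likelihood test, Benjamini-Hochberg over all genes tested), beside 0.969% of all genes. An unadjusted p under 0.05 was reached there by 4 of them, and by at least 2927 of the 18167 genes tested. DESeq2 called 2 of the 10, Vegfa and Vegfd, and 918 genes over all, where edgeR called 176. At passage 8, 5 of 10 passed beside 9.32% of all genes, of which 3 were higher in Atm-/- cells (5.03% of all genes) and 2 lower (4.29%). From passage 2 to 8 in Atm+/+ cells, 4 of 10 passed beside 23.3% of all genes, with 2 higher (9.8%) and 2 lower (13.5%). The same step in Atm-/- cells gave 4 of 10 beside 13%, with 2 higher (4.76%) and 2 lower (8.25%). Against unirradiated passage 2 cells, irradiated cells had 5 of 10 beside 27.5%, with 1 higher (11%) and 4 lower (16.5%). Against Atm+/+ passage 8 cells they had 2 of 10 beside 6.89%, with 1 higher (4.3%) and 1 lower (2.59%). The passage effect differed between the genotypes for 3 of 10 beside 4.43%, with 2 differences above 0 (2.46%) and 1 below (1.97%). The genotype comparison at passage 2, passage in Atm+/+ cells and irradiation against passage 2 share the Atm+/+ passage 2 libraries. The Atm+/+ and Atm-/- passage 8 libraries are likewise used more than once, so these counts are not independent of each other.

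Without the 2 libraries of low gene number, the counts were 0, 6, 4, 5, 5, 4 and 3 in the same order. Calls over all genes rose in that fit too, from 1693 to 4629 for genotype at passage 8 and from 1252 to 4710 for irradiation against passage 8. In those 13 libraries, Vegfb and Vegfc were also lower in irradiated than in Atm+/+ passage 8 cells. The median log2 fold change of the 10 genes, beside that of all genes, was -0.38 and 0.04 for genotype at passage 2 and -0.84 and -0.08 for genotype at passage 8. For passage it was 0.06 and 0.00 in Atm+/+ cells and -0.46 and -0.08 in Atm-/- cells. It was -0.39 and -0.01 for irradiation against passage 2 and -0.34 and -0.01 against passage 8.

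**Figure D3:**
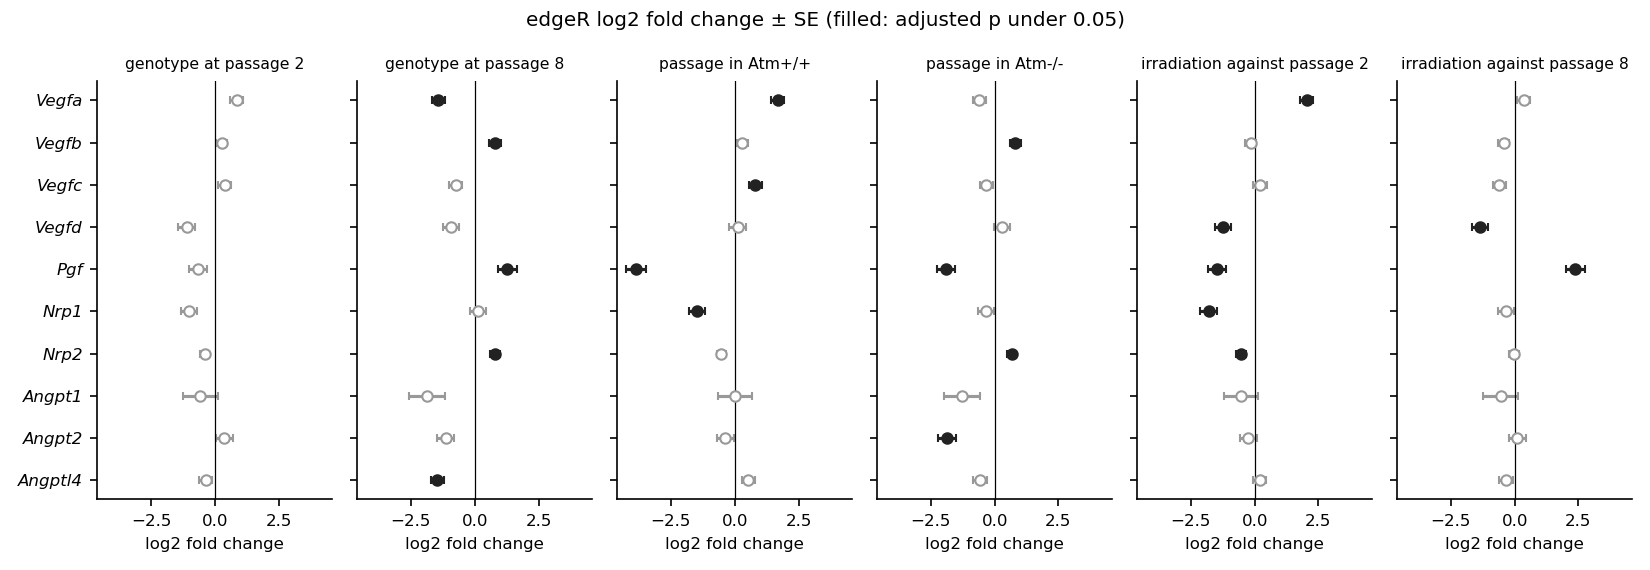
edgeR log2 fold change ± SE of the 10 genes in the 6 comparisons between groups of 3 libraries. Filled points passed an adjusted p of 0.05. Vegfa lies right of 0 for passage in Atm+/+ cells and for irradiation against passage 2, and left of 0 between genotypes at passage 8.

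Vegfa, the gene of VEGF-A (chr17:46016993-46032369, minus strand), rose with passage and after irradiation in Atm+/+ cells and was lower without Atm at passage 8. The 3 Atm+/+ libraries read 193, 281 and 134 CPM at passage 2, and 645, 560 and 758 CPM at passage 8. After irradiation they read 903, 841 and 761 CPM. The 3 conditions did not overlap, with passage 8 between the other two. The rise was 3.22-fold with passage (log2 1.69, SE 0.26, edgeR adjusted p = 0.000459) and 4.11-fold after irradiation (log2 2.04, SE 0.26, adjusted p = 0.000233). Irradiated cells were 0.35 (log2, SE 0.26) above Atm+/+ passage 8 cells, which did not pass (adjusted p = 0.590, 95% interval -0.20 to 0.90).

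Without Atm, the order of the passages was the reverse. Vegfa read 335, 394 and 378 CPM at passage 2, above every Atm+/+ library of that passage. It read 174, 323 and 229 CPM at passage 8, below every Atm+/+ library of passage 8. At passage 2 the difference of 0.86 (log2, SE 0.26) did not pass with edgeR (adjusted p = 0.151), while DESeq2 gave an adjusted p of 0.0402. At passage 8 Vegfa was 2.71-fold lower in Atm-/- cells (log2 -1.44, SE 0.26, adjusted p = 0.00520), and an edgeR fit of those 6 libraries alone gave -1.42 with an adjusted p of 0.0929. The change with passage in Atm-/- cells was -0.61 (SE 0.26, adjusted p = 0.139). The passage effect itself differed between the genotypes by -2.30 (log2, SE 0.37, adjusted p = 0.0104), and this call held in all 25 alternative analyses.

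Vegfb (chr19:6982473-6987651, minus strand), whose product binds Flt1 and is linked to the handling of fatty acids, moved in the opposite direction to Vegfa between the genotypes at passage 8. Its 3 Atm-/- libraries at passage 8 read 132, 111 and 65.9 CPM, against 66.1, 59.9 and 52.8 CPM in Atm+/+ cells. The lowest Atm-/- library, replicate 3, lay within the Atm+/+ range. The difference was 0.79 (log2, SE 0.22, adjusted p = 0.0400), it passed in 10 of 25 alternatives, and on log2(TPM + 1) it was 0.41 with an adjusted p of 0.387. Leaving out any 1 of 11 libraries also ended the call (log2 0.57 to 0.87, adjusted p = 0.0581 to 0.171). Without the 2 libraries of low gene number, of which this replicate 3 is one, the difference was 1.05 (edgeR adjusted p = 0.00036). Within Atm-/- cells Vegfb rose from 65.9, 54.9 and 56.5 CPM at passage 2 (log2 0.80, SE 0.22, adjusted p = 0.0267), a call kept in 17 of 25 alternatives and lost without Atm-/- passage 2 replicate 2 or 3 or passage 8 replicate 1 or 2 (adjusted p = 0.0511 to 0.0994). On log2(TPM + 1) it was 0.39 with an adjusted p of 0.414, and in the fit of only those groups the adjusted p was 0.166. Without the 2 libraries of low gene number the rise was 1.07 (edgeR adjusted p = 9.59e-05). In that fit the passage effects of the genotypes differed by 0.86 (adjusted p = 0.0174), beside 0.52 (adjusted p = 0.271) over all 15 libraries. In Atm+/+ cells neither passage (log2 0.29) nor irradiation against passage 2 (log2 -0.15) passed.

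The 250 bases before the RefSeq starts of Vegfa and Vegfb (GRCm38.p6, both on the minus strand) are shown, since these ligand genes differed in opposite directions between the genotypes at passage 8 and these windows lie outside annotated transcripts. Capitals mark ACGTG or GCGTG, the core letters of hypoxia response elements, and GGGCGG, a GC box, on either strand, and neighbouring matches may overlap.
Vegfa, chr17:46032378-46032627: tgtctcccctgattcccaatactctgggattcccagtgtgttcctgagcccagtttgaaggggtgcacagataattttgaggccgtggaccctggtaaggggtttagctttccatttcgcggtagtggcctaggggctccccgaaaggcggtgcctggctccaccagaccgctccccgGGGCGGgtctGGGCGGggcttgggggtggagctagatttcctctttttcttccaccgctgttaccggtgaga
Vegfb, chr19:6987652-6987901: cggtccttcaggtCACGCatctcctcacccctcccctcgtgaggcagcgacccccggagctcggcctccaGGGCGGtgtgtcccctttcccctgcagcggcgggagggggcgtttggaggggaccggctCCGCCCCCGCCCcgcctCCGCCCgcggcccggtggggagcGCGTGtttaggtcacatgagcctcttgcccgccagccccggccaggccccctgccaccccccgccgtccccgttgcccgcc
RefSeq has another start window for Vegfa, chr17:46025164-46025413, which lies inside an annotated transcript and held 1 match to ACGTG, 1 to GCGTG and 1 to GGGCGG. The Vegfa window shown held 0 matches to ACGTG, 0 to GCGTG and 2 to GGGCGG. That of Vegfb held 0, 2 and 4, and its GCGTG matches began 237 and 81 bases before the start. Of 32851 RefSeq windows of this length, 16.6% held ACGTG, 28.2% held GCGTG and 32.7% held GGGCGG. Windows were found for 7 of the 10 genes. A match is a run of letters and was not examined for binding, and sequence further upstream was not searched.

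Pgf (chr12:85166635-85177790, minus strand) had the largest fitted change of the 10, its fall with passage in Atm+/+ cells. It read 196, 211 and 200 CPM at passage 2, and 15.4, 14.4 and 12.1 CPM at passage 8. The irradiated libraries lay between, at 71.8, 104 and 42.4 CPM, without overlap with either. The fall with passage was 14.5-fold (log2 -3.86, SE 0.39, adjusted p = 1.39e-05), and irradiated cells were 2.78-fold below passage 2 (log2 -1.48, SE 0.35, adjusted p = 0.00887) and 5.21-fold above passage 8 (log2 2.38, SE 0.36, adjusted p = 0.00104). These 3 calls held in all 25 alternatives.

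Atm-/- libraries of Pgf read 113, 134 and 135 CPM at passage 2 and 30.1, 17.4 and 55.1 CPM at passage 8, again without overlap (log2 -1.91, SE 0.36, adjusted p = 0.00273). An edgeR fit of only those 6 libraries gave -1.90 with an adjusted p of 0.0541. At passage 8 the Atm-/- libraries all lay above the Atm+/+ ones (log2 1.28, SE 0.36, adjusted p = 0.0398), and the passage effect was 1.95 smaller in size (log2, SE 0.50, adjusted p = 0.0459). They passed in 8 and 7 of 25 alternatives. On log2(TPM + 1) they were 0.77 (limma adjusted p = 0.137) and 1.18 (limma adjusted p = 0.0921). Without Atm-/- passage 8 replicate 3 they were 0.78 (adjusted p = 0.127) and 1.42 (adjusted p = 0.0556), and leaving out any 1 of 9 and 10 other libraries also ended the calls (adjusted p up to 0.159 and 0.133).

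Vegfd (chrX:164373378-164402650, plus strand) was high in unirradiated Atm+/+ cells at both passages. Its libraries read 800, 609 and 860 CPM at passage 2 and 819, 865 and 768 CPM at passage 8, a difference of 0.11 (log2, SE 0.32, adjusted p = 0.823). After irradiation they read 336, 212 and 406 CPM, below every unirradiated Atm+/+ library. Vegfd was thus 2.38-fold lower than at passage 2 (log2 -1.25, SE 0.32, adjusted p = 0.0133) and 2.57-fold lower than at passage 8 (log2 -1.36, SE 0.32, adjusted p = 0.0201). Each call passed in 20 of 25 alternatives. On log2(TPM + 1) the first was -0.85 (limma adjusted p = 0.0536), and with no filter on that scale the second was -1.20 (limma adjusted p = 0.0685). Leaving out irradiated replicate 1, or for the second call Atm+/+ passage 8 replicate 1 or 2, gave adjusted p of 0.0521 to 0.0766, and without irradiated replicate 2 they stood at -0.96 (adjusted p = 0.0758) and -1.11 (adjusted p = 0.117). Vegfd in Atm-/- cells read 353, 367 and 332 CPM at passage 2 and 198, 583 and 508 CPM at passage 8, in both cases below every Atm+/+ library of that passage. Neither genotype difference passed, at -1.11 (SE 0.32, adjusted p = 0.143) and -0.93 (SE 0.32, adjusted p = 0.0811), though DESeq2 called both (adjusted p = 0.0271 and 0.0426). Xist, the transcript of the inactive X, was above 1 TPM in 2 libraries, Atm-/- passage 2 replicate 3 and Atm-/- passage 8 replicate 3, and their part in the Vegfd values was not tested.

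Vegfc, the other lymphatic ligand (chr8:54077606-54187096, plus strand), rose with passage in Atm+/+ cells, from 44.7, 43.6 and 33.8 CPM to 67.3, 74.1 and 72.8 CPM (log2 0.81, SE 0.26, adjusted p = 0.0386). The groups did not overlap, and the call held in 16 of 25 alternatives. On log2(TPM + 1) the rise was 1.01 (limma adjusted p = 0.0729). Leaving out Atm+/+ passage 2 replicate 1 or 3 or any Atm+/+ passage 8 library also ended the call (log2 0.73 to 0.89, adjusted p = 0.0705 to 0.111). Its Atm-/- libraries were close together at passage 2, with 53.3, 53.4 and 53.8 CPM, and far apart at passage 8, with 36.7, 65.3 and 24.99 CPM. Its difference between genotypes at passage 8 was -0.75 (SE 0.26, adjusted p = 0.0821). Of 9 genes for the processing of VEGF-C and VEGF-D, 1 was higher and 2 lower with passage in Atm+/+ cells (9.8% and 13.5% of all genes). Ccbe1, the cofactor that promotes VEGF-C cleavage, was higher (log2 0.75, SE 0.14, adjusted p = 0.00161), and the convertase gene Pcsk5 was lower (log2 -2.45, SE 0.62, adjusted p = 0.0124). With passage in Atm-/- cells 0 were higher and 3 lower (4.76% and 8.25% of all genes). Among them were Pcsk5 (log2 -4.89, SE 0.70, adjusted p = 0.000386) and Plau, the urokinase gene (log2 -1.33, SE 0.28, adjusted p = 0.00639).

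Nrp1, the co-receptor of VEGF-A and of class 3 semaphorins (chr8:128358604-128503363, plus strand), was highest in Atm+/+ cells at passage 2, at 307, 188 and 452 CPM. It read 107, 132 and 101 CPM in Atm+/+ cells at passage 8 and 85.6, 96.0 and 88.3 CPM after irradiation, both below every passage 2 library. The falls were 2.78-fold (log2 -1.47, SE 0.32, adjusted p = 0.00514) and 3.51-fold (log2 -1.81, SE 0.32, adjusted p = 0.00185), and both held in all 25 alternatives. The highest Atm+/+ passage 2 value came from replicate 3, one of the libraries of low gene number, and without it the falls were -1.09 and -1.40. Nrp1 in Atm-/- cells stood at 144, 139 and 186 CPM at passage 2 and 74.9, 110 and 183 CPM at passage 8, overlapping ranges with a difference of -0.35 (SE 0.31, adjusted p = 0.508). Without the 2 libraries of low gene number that difference was -0.73 with an adjusted p of 0.0272.

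Nrp2, the neuropilin more often linked to VEGF-C and lymphatic vessels (chr1:62703285-62818695, plus strand), rose with passage in Atm-/- cells. Its libraries read 70.1, 67.1 and 66.1 CPM at passage 2 and 102, 93.0 and 128 CPM at passage 8 (log2 0.67, SE 0.18, adjusted p = 0.0277). Atm+/+ cells read 77.3, 69.7 and 121 CPM at passage 2 and 57.6, 61.0 and 67.9 CPM at passage 8, where the difference missed the threshold (log2 -0.52, SE 0.18, adjusted p = 0.0562). At passage 8 every Atm-/- library was above every Atm+/+ library (log2 0.79, SE 0.18, adjusted p = 0.0185). The 2 passage effects differed by 1.19 (SE 0.26, adjusted p = 0.0287). These 3 calls passed in 17, 18 and 12 of 25 alternatives, and on log2(TPM + 1) they were 0.29, 0.43 and 0.53 with adjusted p of 0.201, 0.0770 and 0.0920. The first was lost without any 1 Atm-/- passage 2 library or passage 8 replicate 3 (adjusted p up to 0.0844), the second without any 1 Atm+/+ passage 8 library (up to 0.0836) and the third without any 1 of 8 libraries (up to 0.0902). Without both libraries of low gene number the 3 calls held, at 0.55, 0.67 and 0.77 (edgeR adjusted p = 0.00053, 0.000375 and 0.00384). The decrease after irradiation against passage 2 (log2 -0.54, SE 0.18, adjusted p = 0.0431) was lost without any 1 of 12 libraries. Without Atm+/+ passage 2 replicate 3 it was -0.20 with an adjusted p of 0.316.

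Angpt2, the context-dependent Tek ligand (chr8:18690263-18741562, minus strand), passed in 1 of the 7 comparisons with edgeR, passage in Atm-/- cells. There it read 51.7, 61.9 and 69.1 CPM at passage 2 and 12.7, 25.5 and 11.2 CPM at passage 8, a 3.67-fold fall (log2 -1.88, SE 0.35, adjusted p = 0.00240) that held in all 25 alternatives. Atm+/+ libraries read 41.5, 73.1 and 27.1 CPM at passage 2, 38.7, 31.4 and 40.1 CPM at passage 8, and 39.3, 44.3 and 35.4 CPM after irradiation, with overlap throughout. At passage 8 all Atm-/- libraries were below all Atm+/+ ones, and the difference of -1.15 (SE 0.34) just missed the threshold (adjusted p = 0.0509). The passage effects of the genotypes differed by -1.51 (SE 0.48), which also missed it (adjusted p = 0.0667). DESeq2 called both (adjusted p = 0.00971 and 0.0191). Without the 2 libraries of low gene number they were -0.93 (edgeR adjusted p = 0.0351) and -1.03 (adjusted p = 0.0955). Angpt2 lies on the opposite strand to Mcph1, and since the strand setting of the counting is not given in the sources used here, reads of the pair cannot be told apart. Over all libraries Angpt2 had 21166 counts and Mcph1 3730.

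Angpt1, the activating Tek ligand (chr15:42424723-42676977, minus strand), was scarce. It read 5.74, 7.53 and 3.10 CPM in Atm+/+ cells at passage 2, 5.94, 4.55 and 6.12 CPM at passage 8 and 3.72, 3.12 and 4.50 CPM after irradiation. Atm-/- cells read 3.66, 4.12 and 3.27 CPM at passage 2 and 1.19, 3.08 and 0 CPM at passage 8, where a count of 0 in replicate 3 allows up to 0.263 CPM. The Atm-/- libraries of passage 8 were all below the Atm+/+ ones. The difference of -1.88 (SE 0.71) did not pass with edgeR (adjusted p = 0.104) but did with DESeq2 (adjusted p = 0.0166). Without the 2 libraries of low gene number, which include the one at 0, it was -1.37 (edgeR adjusted p = 0.00842). Of 7 other genes of the angiopoietin and angiopoietin-like families 5 could be tested. In Atm-/- cells at passage 8, 2 were lower and 0 higher (4.29% and 5.03% of all genes). They were Angptl2, a secreted inflammatory factor (log2 -1.19, SE 0.25, adjusted p = 0.0111), and Angpt4, itself an angiopoietin that binds Tek (log2 -1.11, SE 0.31, adjusted p = 0.0403). Per length Angpt4 averaged 43.6 to 152 TPM over the 5 groups, where Angpt2 averaged 6.56 to 29.3 TPM and Angpt1 at most 2.18 TPM.

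Angptl4 (chr17:33773750-33781830, minus strand) was lower without Atm at passage 8. Its Atm+/+ libraries read 244, 211 and 220 CPM and its Atm-/- libraries 47.9, 129 and 67.9 CPM, a 2.76-fold difference (log2 -1.47, SE 0.26, adjusted p = 0.00509). It passed in 24 of 25 alternatives, and the exception was the fit of only those 6 libraries, with -1.45 and an adjusted p of 0.129. At passage 2 the Atm+/+ libraries read 166, 145 and 156 CPM and the Atm-/- libraries 120, 137 and 108 CPM, and after irradiation the values were 179, 169 and 187 CPM. The rise with passage in Atm+/+ cells (log2 0.53, SE 0.26, adjusted p = 0.149) and the difference after irradiation against passage 2 (log2 0.19, SE 0.26, adjusted p = 0.597) did not pass, although neither pair of groups overlapped. Of 11 tested PPAR target genes, 1 was higher and 0 lower in Atm-/- cells at passage 8 (5.03% and 4.29% of all genes). It was Plin2, which coats lipid droplets (log2 0.75, SE 0.14, adjusted p = 0.00709).

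Groups that do not overlap were more frequent than calls among the 10 genes, as they were among all genes. They numbered 6 between genotypes at passage 2 (25.8% of all genes), 8 at passage 8 (39.8%), 6 for passage in Atm+/+ cells (47.5%) and 6 in Atm-/- cells (37%). For irradiation they numbered 6 against passage 2 (55%) and 8 against passage 8 (48.4%).

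The receptors of these ligands were measured in the same libraries. Kdr, the main signalling receptor of VEGF-A, averaged 24.4 CPM in Atm+/+ and 16.3 CPM in Atm-/- cells at passage 2, and 4.02 CPM after irradiation. At passage 8 it had 3, 0 and 5 counts in Atm+/+ libraries and 78, 32 and 0 in Atm-/- libraries. Tie1, the orphan partner of Tek, averaged 86.2 and 59.2 CPM at passage 2, 0.180 and 2.10 CPM at passage 8 and 19.6 CPM after irradiation, in the same order of genotypes. Tek was at 0.387 to 6.55 CPM in the passage 2 libraries of Atm+/+ cells and had 1, 1 and 2 counts at passage 8. Of the 5 receptor genes, 4 were lower with passage in Atm+/+ cells (13.5% of all genes) and 3 in Atm-/- cells (8.25%). After irradiation 3 were lower than at passage 2 (16.5%). At passage 8, 3 were higher and 0 lower in Atm-/- than Atm+/+ cells (5.03% and 4.29%). Irradiated cells had 3 higher and 0 lower than Atm+/+ passage 8 cells (4.3% and 2.59%). Flt4 was lower with passage in Atm+/+ cells (log2 -1.39, SE 0.25, adjusted p = 0.00154) and higher in Atm-/- than Atm+/+ cells at passage 8 (log2 1.16, SE 0.25, adjusted p = 0.0129). Flt1, the receptor shared by VEGF-A, VEGF-B and placental growth factor, averaged 53.0 CPM in Atm+/+ cells at passage 2 and 23.3 to 42.7 CPM in the other groups and passed in 0 of the 7 comparisons with edgeR (unadjusted p under 0.05 in 3).

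Markers of other cell types moved with passage alongside Pgf and the receptors. Of 17 endothelial markers, which include 4 of the receptors, 15 were lower with passage in Atm+/+ cells (13.5% of all genes). In Atm-/- cells 14 were lower with passage (8.25%), and 11 were lower after irradiation against passage 2 (16.5%). In irradiated cells 13 were higher than in Atm+/+ passage 8 cells (4.3%). Their sum ranged over 921 to 1514 CPM in Atm+/+ and 678 to 1003 CPM in Atm-/- libraries at passage 2, 182 to 206 and 184 to 198 CPM at passage 8, and 350 to 571 CPM after irradiation. The 15 macrophage markers were all lower with passage in Atm+/+ cells (13.5% of all genes). Their sum in those cells was 2259 to 3855 CPM at passage 2, 66.8 to 103 CPM at passage 8 and 1401 to 2543 CPM after irradiation. The range of the sum in Atm-/- libraries was 1009 to 1656 CPM at passage 2 and 35.3 to 60.0 CPM at passage 8, again with all 15 lower (8.25% of all genes). After irradiation 2 of the 15 macrophage markers were lower than at passage 2 (16.5% of all genes), and the ranges of the sum overlapped. Against Atm+/+ passage 8 cells 14 were higher after irradiation (4.3%). The leukocyte gene Ptprc and the macrophage gene Adgre1, 2 of these 15, were at 0 counts in each Atm-/- passage 8 library. Of the 15 markers, 12, 13 and 4 had reads in replicates 1, 2 and 3 of that group. Replicate 3 is the library with the lowest total (13645592 counts). The part of these cells in the Pgf, Nrp1, Angpt2 and receptor values was not tested. The 11 pericyte and smooth muscle markers summed to 5439 to 6746 CPM in Atm+/+ and 9122 to 11200 CPM in Atm-/- libraries at passage 2, 14020 to 15100 and 7426 to 8611 CPM at passage 8, and 19210 to 22070 CPM after irradiation, the order of groups that the mean of Vegfa had. By gene, 4 of them were higher and 6 lower with passage in Atm+/+ cells (9.8% and 13.5% of all genes). After irradiation 5 were higher and 2 lower than at passage 2 (11% and 16.5%). At passage 8, 1 was higher and 8 lower in Atm-/- than Atm+/+ cells (5.03% and 4.29%). The part of these markers in the Vegfa values was not tested. At passage 8, 8 of 10 fibroblast markers were lower and 1 higher in Atm-/- than in Atm+/+ cells (4.29% and 5.03% of all genes). Vegfa and Angptl4 were also lower there, and the part of the fibroblast markers in their values was not tested.

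**Figure D4:**
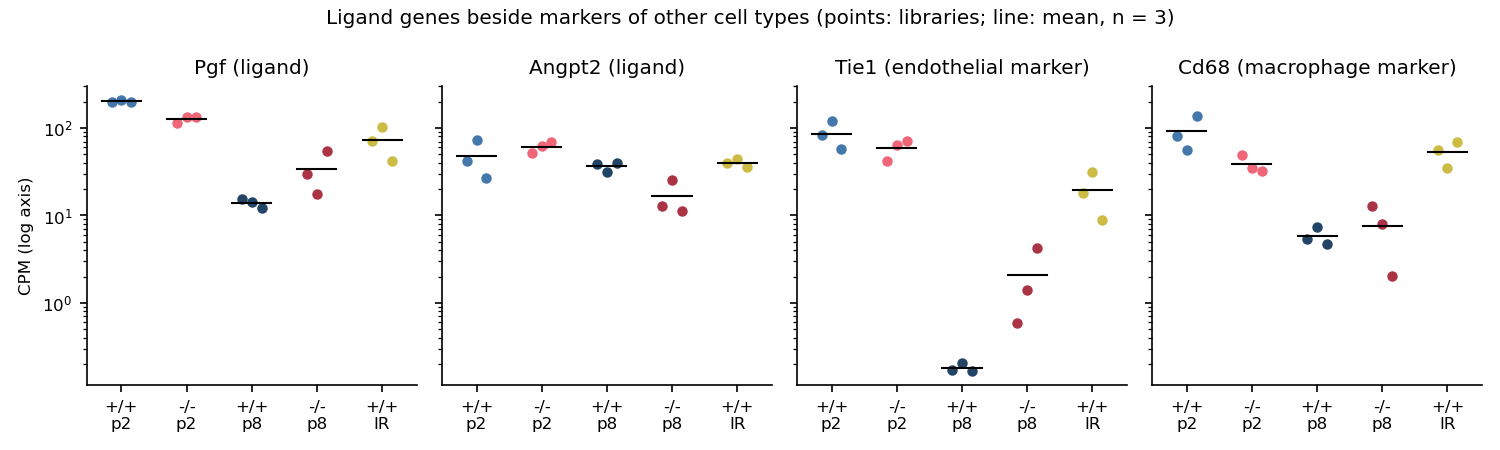
CPM on a log axis of Pgf, Angpt2, the endothelial gene Tie1 and the macrophage gene Cd68 in the 15 libraries, with points for libraries and lines for means (n = 3). Pgf, Tie1 and Cd68 are lower at passage 8 than at passage 2 in both genotypes and intermediate after irradiation, while the ranges of Angpt2 overlap among the Atm+/+ groups. Cd68 was singled out after its values were seen. Of the 15 macrophage markers, 2 passed as lower after irradiation against passage 2.

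Vegfa was set beside other genes known to respond to low oxygen, with all cultures at 3% oxygen. Of 16 hypoxia-inducible genes 10 were higher and 0 lower with passage in Atm+/+ cells (9.8% and 13.5% of all genes). Their median log2 fold change was 1.10 beside 0.00 for all genes. Ero1l, an oxidase of the endoplasmic reticulum, was higher by 2.55 (log2, SE 0.15, adjusted p = 2.73e-07), and the glucose transporter gene Slc2a1 by 2.23 (SE 0.21, adjusted p = 7.31e-06). After irradiation 8 were higher and 0 lower than at passage 2 (11% and 16.5% of all genes), with a median of 0.70. Against Atm+/+ passage 8, irradiated cells had 0 higher and 5 lower (4.3% and 2.59% of all genes). The median was -0.52, where Vegfa was at 0.35 and did not pass. Between genotypes at passage 8, 7 were lower in Atm-/- than Atm+/+ cells and 0 higher (4.29% and 5.03% of all genes), with a median of -0.56. Ddit4, an inhibitor of mTORC1 induced by stress, was lower by 2.29 there (log2 -2.29, SE 0.38, adjusted p = 0.00324), and Slc2a1 was at -0.96 (SE 0.20, adjusted p = 0.0103). Passage in Atm-/- cells gave 4 higher and 2 lower (4.76% and 8.25% of all genes), where Vegfa was at -0.61 and did not pass. At passage 2, 0 of 16 passed between genotypes with edgeR (0.969% of all genes). An unadjusted p under 0.05 was reached by 7, and by at least 2927 of the 18167 genes tested. The passage effect differed between the genotypes for 7 of the 16, all in the direction seen for Vegfa (1.97% of all genes).

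Among 10 genes of oxygen sensing was Hif1a, the oxygen-regulated subunit of hypoxia-inducible factor. It averaged 87.9 CPM in Atm+/+ and 120 CPM in Atm-/- cells at passage 2, 248 and 111 CPM at passage 8, and 226 CPM after irradiation. It was higher with passage in Atm+/+ cells (log2 1.50, SE 0.19, adjusted p = 7.36e-05) and after irradiation against passage 2 (log2 1.36, SE 0.18, adjusted p = 0.000304), and lower in Atm-/- than Atm+/+ cells at passage 8 (log2 -1.16, SE 0.18, adjusted p = 0.00292). Egln1, a HIF prolyl hydroxylase, was also higher with passage in Atm+/+ cells (log2 1.17, SE 0.19, adjusted p = 0.000557). Over the list 3 were higher and 1 lower in that comparison (9.8% and 13.5% of all genes). After irradiation 3 were higher and 1 lower than at passage 2 (11% and 16.5%). Between genotypes at passage 8, 0 were higher and 3 lower (5.03% and 4.29%). Hif1a and Vegfa come from the same libraries, and HIF protein was not measured.

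**Figure D5:**
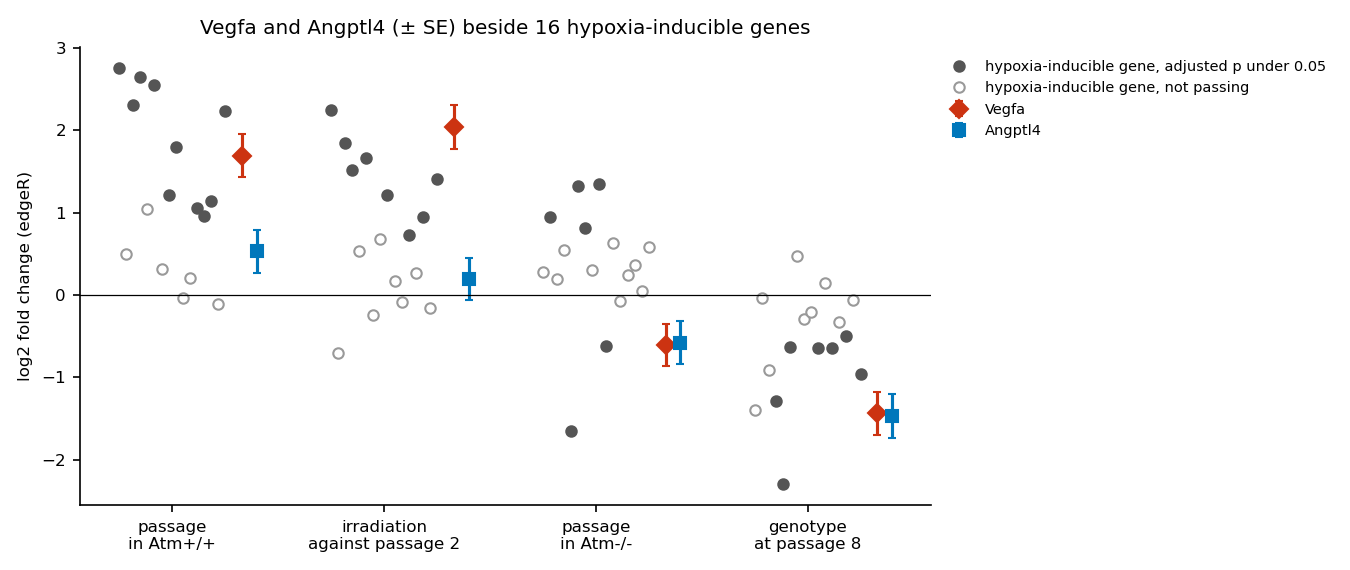
edgeR log2 fold changes of 16 hypoxia-inducible genes (circles, filled at an adjusted p under 0.05) beside Vegfa and Angptl4 (± SE) in 4 comparisons. Vegfa lies above 0 for passage in Atm+/+ cells and irradiation, and both genes lie below 0 between genotypes at passage 8.

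Partners that hold VEGF in the matrix or at the cell surface were listed separately. Of 9 such genes 4 were higher and 0 lower with passage in Atm+/+ cells, among them Ccn2, which binds VEGF-A (log2 3.06, SE 0.18, adjusted p = 2.73e-07), and the hyaluronan receptor gene Cd44 (log2 1.24, SE 0.17, adjusted p = 0.000155). Over all genes 9.8% were higher and 13.5% lower in that comparison. After irradiation 3 were higher and 1 lower than at passage 2 (11% and 16.5% of all genes). Without Atm at passage 8, 4 were lower and 0 higher (4.29% and 5.03%). They include the fibronectin gene Fn1 (log2 -1.30, SE 0.21, adjusted p = 0.00338), which is also one of the fibroblast markers.

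Across the 15 libraries, the profiles nearest to each gene were sought among 10304 genes with a mean log2 CPM of at least 2. Vegfa was most like Dnajb4 (Pearson r = 0.99), a co-chaperone gene, Tpm1 (0.97), a tropomyosin gene, and Col12a1 (0.97), a collagen gene. Pgf was most like Sdcbp2 (0.99), Rasip1 (0.98), an endothelial regulator of Ras signalling, and Rin3 (0.98). For Nrp1 the nearest was Nfia (0.98), for Nrp2 Eif3b (0.96), for Vegfb Bbip1 (0.95), for Angptl4 Abi3bp (0.94), for Vegfc Isg20 (0.94) and for Vegfd Csad (0.93). Angpt1 lay below the level for this search. Among the 10 genes, r was -0.81 between Vegfa and Nrp2, -0.67 between Vegfa and Nrp1, and 0.75 between Angpt1 and Angpt2. These coefficients describe libraries that share 5 groups, depth and composition, and carry no test.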

How the data were processed

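Total RNA from 15 libraries was sequenced. Per the submitters' processing notes, featureCounts, SAMtools 1.3.1 and mm10 were used to make the gene counts the authors deposited. Neither aligner nor strandedness is stated (not given in the sources used here). The authors also deposited TPM for 48082 genes, that is counts per length scaled per library. Symbols from GENCODE vM21 named 48058 of 48440 genes and left 382 without one.

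The counts were filtered by group (filterByExpr), TMM-normalised and fitted in 1 quasi-likelihood model of 15 libraries with a mean per group (edgeR 4.0.16, R 4.3.3), tested on simulated data beforehand. Each of 7 comparisons was a contrast, with Benjamini-Hochberg adjustment over 18167 genes and a threshold of 0.05. SE was taken from the quasi-likelihood F (fold change over root F), and intervals are at 95%. TPM was used for levels and, as log2(TPM + 1) or log2(TPM + 0.1) in limma 3.58.1, as an alternative. Other alternatives were DESeq2 1.42.0, its size factors in edgeR, no filter, a strict filter (1 CPM in 3 libraries and a mean count of 50), only the groups compared, a replicate block, 13 libraries, and each library left out. Another deposited table, holding a subset of the TPM values, was not used.

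All 10 genes are named, with up to 3 genes of lowest p per list and comparison among those passing, 5 receptors always, and the 3 nearest profiles by Pearson r of log2 CPM (prior count 2). Where fewer are printed the rest were left out for length, and the profile nearest to Angpt2 is not reported here. Lists were VEGF and angiopoietin receptors, other angiopoietin-like genes, VEGF-C and VEGF-D processing, semaphorins and plexins, oxygen sensing, hypoxia-inducible genes, PPAR targets, angiogenesis inhibitors, VEGF binding partners, and markers of endothelial cells, macrophages, pericytes and smooth muscle, epithelium, mesothelium and fibroblasts. The genes and lists were chosen with earlier results of these data known. Ptprc, Adgre1 and Cd68 were singled out after their values were seen. Promoter sequences are from RefSeq (GRCm38.p6).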

Additional observations from a re-analysis of the deposited data

Results flagged for a closer look

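For 3 genes the change with passage differed between the genotypes by a test of the difference itself, the interaction term of the edgeR fit over all 15 libraries. For Vegfa the passage effect in Atm-/- cells minus that in Atm+/+ cells was -2.2968 on the log2 scale, for Pgf it was 1.9501, and for Nrp2 it was 1.1902. Vegfa was higher in all 3 Atm+/+ libraries at passage 8 than in every Atm+/+ passage 2 library. In all 3 Atm-/- libraries at passage 8 it was lower than in every Atm-/- passage 2 library. Pgf fell in both genotypes, and less in Atm-/- cells. Nrp2 was higher with passage in Atm-/- cells, while its Atm+/+ libraries at passage 8 were all below those of passage 2. With a replicate block the Vegfa call held, and Pgf and Nrp2 had adjusted p of 0.087 and 0.0621.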

How the results depend on the processing

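Each result was recomputed under 25 alternatives, and 0 of the called changes of the 10 genes changed sign in any of them. Of 1750 recomputed single-gene values 1511 kept their side of the threshold and direction, 129 lost and 59 gained a call, and 51 values that passed in neither analysis changed sign. The number of genes called among the 10 was 2, 9 and 6 with DESeq2 for genotype at passage 2, genotype at passage 8 and genotype by passage. With only the groups compared it was 0 for genotype at passage 8, 1 for passage in Atm-/- cells, 8 for irradiation against passage 8 and 1 for genotype by passage. On log2(TPM + 1) it was 3 for irradiation against passage 2. On log2(TPM + 0.1) it was 3 for genotype at passage 8, 3 for irradiation against passage 2 and 1 for genotype by passage. On log2(TPM + 1) with no filter it was 3 for genotype at passage 8, 2 for passage in Atm-/- cells, 3 for irradiation against passage 2, 1 for irradiation against passage 8 and 1 for genotype by passage. The 13 libraries gave 4 for irradiation against passage 8. Leaving out 1 library at a time gave 0 to 3 for genotype at passage 2, 2 to 8 for genotype at passage 8, 3 to 5 for passage in Atm+/+ cells, 2 to 7 for passage in Atm-/- cells, 3 to 5 for irradiation against passage 2, 1 to 2 against passage 8 and 1 to 6 for genotype by passage. The highest counts without 1 library, 8 and 7 for genotype at passage 8 and passage in Atm-/- cells, came without Atm-/- passage 8 replicate 2, and the 3 for genotype at passage 2 without Atm+/+ passage 2 replicate 2. Vegfc, Vegfd, Angpt1 and Angpt2 then passed between genotypes at passage 8 (log2 -1.21, -1.22, -2.99 and -1.62). The cause was not tested. Over all genes, calls in the same 7 comparisons (genotype at passage 2 and 8, passage in Atm+/+ and Atm-/-, irradiation against passage 2 and 8, genotype by passage) numbered 176, 1693, 4227, 2362, 4998, 1252 and 804. With DESeq2 they were 918, 3592, 5897, 3636, 6719, 2005 and 3622, with 13 libraries 989, 4629, 7418, 5026, 8561, 4710 and 2556, and with only the groups compared 40, 18, 2665, 868, 3711, 6214 and 120. Genotype by passage had 518 with no filter, 1298 with the strict filter and 370 on log2(TPM + 0.1), and log2(TPM + 1) with no filter gave 910 for genotype at passage 8, 2734 for passage in Atm+/+ cells and 230 for genotype by passage. Without 1 library the ranges were 61 to 1787, 588 to 3390, 2186 to 7500, 1476 to 3544, 2677 to 8275, 722 to 2341 and 79 to 4600. On log2(TPM + 1) the median of all genes moved to 0.22, -0.29, 0.19, -0.32, 0.32, 0.14 and -0.50.

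With a replicate block, the replicate number as a term within genotype, or across genotypes for the 2 genotype comparisons, genotype by passage had 1 call among the 10 genes (Vegfa), and 144 rather than 804 over all genes. The other counts stayed within 1 of those reported, but the genes differed. Pgf lost its call between genotypes at passage 8 (adjusted p = 0.0657) and Angpt2 gained one (0.0319), while Vegfc with passage in Atm+/+ cells (0.0549) and Nrp2 after irradiation against passage 2 (0.0609) lost theirs. The labels do not say that a number marks a shared strain, and the main fit does not take the numbers as pairs. With 3 strains per genotype, groups of a genotype may hold the same strains, which that fit ignores. Deviations of same-numbered libraries correlated at -0.20 to 0.19, which cannot decide whether strains were shared. Xist was above 1 TPM in replicate 3 of Atm-/- cells at both passages and in no other library, and whether a number marks a strain was not tested further. Libraries that correlated best with their own number were 0 of 6 for Atm+/+ passages 2 and 8, 3 for Atm-/- passages, 4 for Atm+/+ passage 2 and irradiation, and 6 for Atm+/+ passage 8 and irradiation. Depth limits Angpt1, with 0 counts in 1 library, and Tek and Kdr at passage 8.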

Other observations

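Genes of the semaphorins that share the neuropilins with VEGF changed with passage and irradiation. Of 12 class 3 semaphorin and plexin genes, 6 were higher and 4 lower with passage in Atm+/+ cells (9.8% and 13.5% of all genes). In Atm-/- cells 5 were higher and 3 lower with passage (4.76% and 8.25%). After irradiation 6 were higher and 5 lower than at passage 2 (11% and 16.5%). Sema3a, a repulsive guidance factor that binds Nrp1, was higher with passage in Atm+/+ cells by 3.21 (log2, SE 0.25, edgeR adjusted p = 2.80e-06), in Atm-/- cells by 2.34 (SE 0.24, adjusted p = 3.60e-05) and after irradiation by 2.62 (SE 0.25, adjusted p = 2.56e-05). Plxnd1, the receptor of Sema3e on endothelium, was lower with passage in both genotypes (log2 -3.05, SE 0.28, adjusted p = 7.27e-06, and log2 -3.12, SE 0.28, adjusted p = 1.34e-05). Between the genotypes at passage 2, 2 were higher and 0 lower, where 0.969% of all genes passed in either direction. They were Sema3a (log2 1.41, SE 0.24, adjusted p = 0.0138) and Sema3c (log2 0.79, SE 0.16, adjusted p = 0.0346).

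Genes of angiogenesis inhibitors also changed. Of 10, 5 were higher and 2 lower with passage in Atm+/+ cells (9.8% and 13.5% of all genes). After irradiation 4 were higher and 2 lower than at passage 2 (11% and 16.5%). Thbs1, the gene of thrombospondin 1, was higher by 4.20 with passage (log2, SE 0.32, adjusted p = 2.19e-06) and by 3.57 after irradiation (SE 0.31, adjusted p = 1.20e-05), comparisons in which Vegfa also rose. It was lower in Atm-/- than Atm+/+ cells at passage 8 (log2 -1.60, SE 0.29, adjusted p = 0.00516), and its passage effect differed between the genotypes by -3.07 (SE 0.41, adjusted p = 0.00337). Col18a1, the source of endostatin, was lower with passage in Atm+/+ (log2 -2.58, SE 0.29, adjusted p = 3.88e-05) and Atm-/- cells (log2 -2.54, SE 0.29, adjusted p = 7.64e-05). In Atm-/- cells at passage 8, of 8 tested epithelial markers 1 was higher and 0 lower than in Atm+/+ cells (5.03% and 4.29% of all genes). Of 5 tested mesothelial markers 4 were higher and 0 lower in that comparison (5.03% and 4.29%).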
